A study of Mus musculus with 12 samples.

Results

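Genes for tubulins, for the tubulin-binding stathmins and for the motor proteins of microtubules were followed in mouse dorsal root ganglia through the first week after spared nerve injury. A gene was included if its symbol began with Tuba, Tubb, Stmn, Kif or Dync followed by a digit and if it reached an RPKM (reads scaled to gene length and library size) of at least 1 in at least 3 of the 12 libraries. Of 66 symbols with these prefixes, 52 met that level, among 14195 genes that met it in the whole series and 24060 genes named in the files. The 52 genes were 4 alpha tubulins, 7 beta tubulins, 5 stathmins, 29 kinesins and 7 cytoplasmic dynein subunits. Of the 3 genes taken as marks of this group, Tubb3, Stmn4 and Kif5a, all were expressed, with Tubb3 and Kif5a at 50.6 RPKM or more in every library.

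Dorsal root ganglia hold the cell bodies of sensory neurons together with glia and other cells. All mice were adult male C57BL/6J animals of 9 to 10 weeks. Injured ganglia came from mice 1, 3 or 7 days after ligation and section of the sciatic nerve's tibial and common peroneal branches, with the sural branch spared, and the naive mice had no such surgery. Each of the 4 groups had 3 libraries, no sham-operated group was analysed here, and the labels do not say how many animals went into a library. The p-values therefore measure only the spread between these libraries, which may be technical.

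Microtubules are hollow polymers of alpha and beta tubulin pairs and form the tracks and much of the scaffold of an axon. Stathmins bind tubulin pairs and favour the shrinking of microtubules. Most kinesins carry cargo outward along the axon, while cytoplasmic dynein carries cargo, including signals from an injured nerve, back to the cell body.

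Library sizes recovered from the values ran from 13627000 to 17953000 reads, and 1 read in a gene of 1 kilobase was worth 0.0557 to 0.0734 RPKM. The tissue label was met by its markers, since all 13 sensory neuron markers passed the expression level, with summed RPKM of 1329 to 1818 at day 1, 1208 to 1628 at day 3 and 1040 to 1623 at day 7, against 1496 to 1880 in naive ganglia. In a bulk sample, fewer cells of a type and less RNA per cell cannot be told apart. Libraries also differed within groups. The skeletal muscle marker Myh4 reached 9.75 RPKM in naive replicate 1 and 10.2 RPKM in day 7 replicate 2, and it was at most 2.59 RPKM in the other libraries. All 8 muscle markers summed to 2.07 to 28.8 RPKM at day 7, against 3.01 to 40.7 RPKM in naive ganglia, and 0 of the 3 tested passed in limma, where 0 had an unadjusted p under 0.05, or in voom on recovered reads. The mean log2 deviation of the 11 tubulin genes from their average over libraries was -0.52 in day 7 replicate 1, against 0.39 and 0.30 in the other day 7 libraries. Genes for ribosomal proteins followed the same order there, with a mean deviation of -0.58 in day 7 replicate 1 and 0.41 and 0.15 in the other day 7 libraries.

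**Figure D1:**
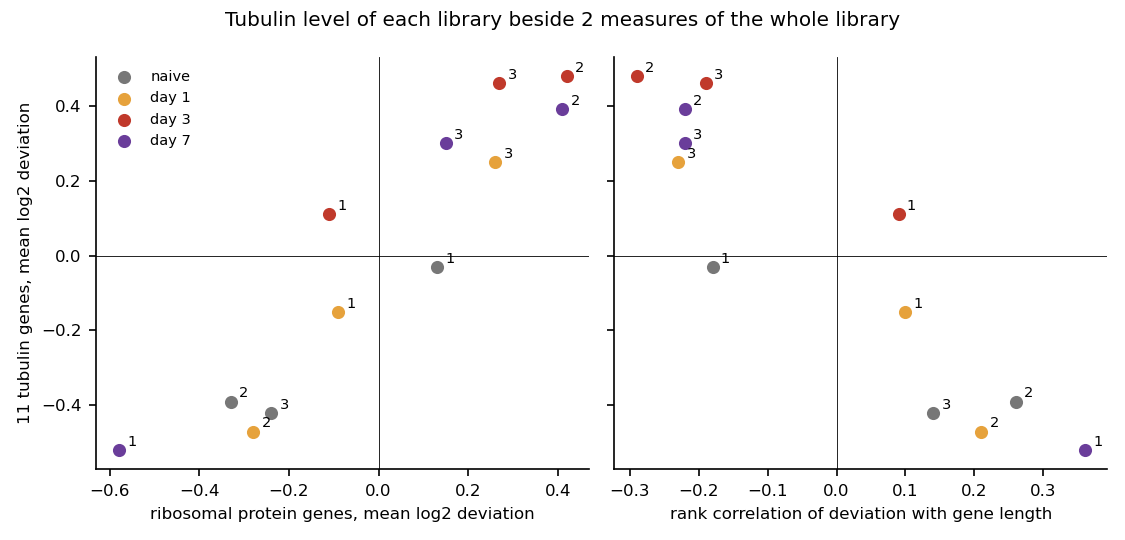
Mean log2 deviation of 11 tubulin genes from their average over the 12 libraries (vertical axis) against the mean deviation of 78 ribosomal protein genes (left) and the Spearman correlation, across genes, of a library's deviations with gene length (right). Points are libraries coloured by group and marked by replicate number, and day 7 replicate 1 lies lowest for tubulins, at -0.52.

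The plot of library deviations shows how far tubulin levels moved with properties of the whole library. Tubulin deviations ran from -0.42 to -0.03 in naive ganglia, from -0.47 to 0.25 at day 1, from 0.11 to 0.48 at day 3 and from -0.52 to 0.39 at day 7. Ribosomal protein deviations also differed between groups. They were 0.13, -0.33 and -0.24 in naive ganglia, -0.09, -0.28 and 0.26 at day 1 and -0.11, 0.42 and 0.27 at day 3. Across genes, the rank correlation of a library's deviations with gene length lay between -0.29 in day 3 replicate 2, where tubulins were highest, and 0.36 in day 7 replicate 1, where they were lowest. This correlation was -0.18, 0.26 and 0.14 in naive ganglia and 0.09, -0.29 and -0.19 at day 3. The part of gene length and of library quality in the group differences of tubulins was not tested as a cause, and values after a correction for gene length and GC content, added after the data were seen, are given for the genes that passed against naive at day 3 and for tubulins whose call it changed.

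Against naive ganglia, 1 of the 52 genes passed an adjusted p of 0.05 at day 1 (1.92%), when 3.37% of all tested genes did (2.54% higher and 0.831% lower). At day 3, 7 of the 52 (13.5%) passed, 5 higher and 2 lower, against 5.73% of all genes (3.7% higher and 2.04% lower). At day 7, 3 of the 52 (5.77%) passed, all higher, against 2.9% of all genes (2.24% higher and 0.655% lower). The test was limma on log2(RPKM + 0.5) with Benjamini-Hochberg adjustment over 14195 genes, and every log2 fold change below is on that scale, injured minus naive. The rises were all among tubulins and stathmins and both falls were kinesins. The median log2 fold change of the 52 genes was -0.02 at day 1, -0.01 at day 3 and -0.07 at day 7, beside -0.01, 0 and -0.01 over all genes tested. At day 3 the 3 injured libraries lay above all 3 naive libraries in RPKM for 8 of the 52 genes and below them for 8, shares of 15.4% each, against 13.8% and 12.7% of all genes. The same counts were 4 above and 6 below at day 1, when 11% and 11.7% of all genes did not overlap, and 4 above and 8 below at day 7, against 11% and 7.13% of all genes. The day 3 count changed when single libraries were left out, and so did the share of all genes. Leaving out naive replicate 3 or day 3 replicate 2 gave 3, when 3.15% and 3.42% of all genes passed. Leaving out any of naive replicate 2, day 1 replicate 1 and day 3 replicates 1 and 3 gave 4, against 3.13% to 4.88% of all genes. The day 7 count was 1 when replicate 2 or 3 of the naive or of the day 7 libraries was left out, against 1.62% to 2.21% of all genes. Without day 7 replicate 1 the day 7 count was 6 (3.66% of all genes) and the day 1 count was 2 (4.33%).

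**Figure D2:**
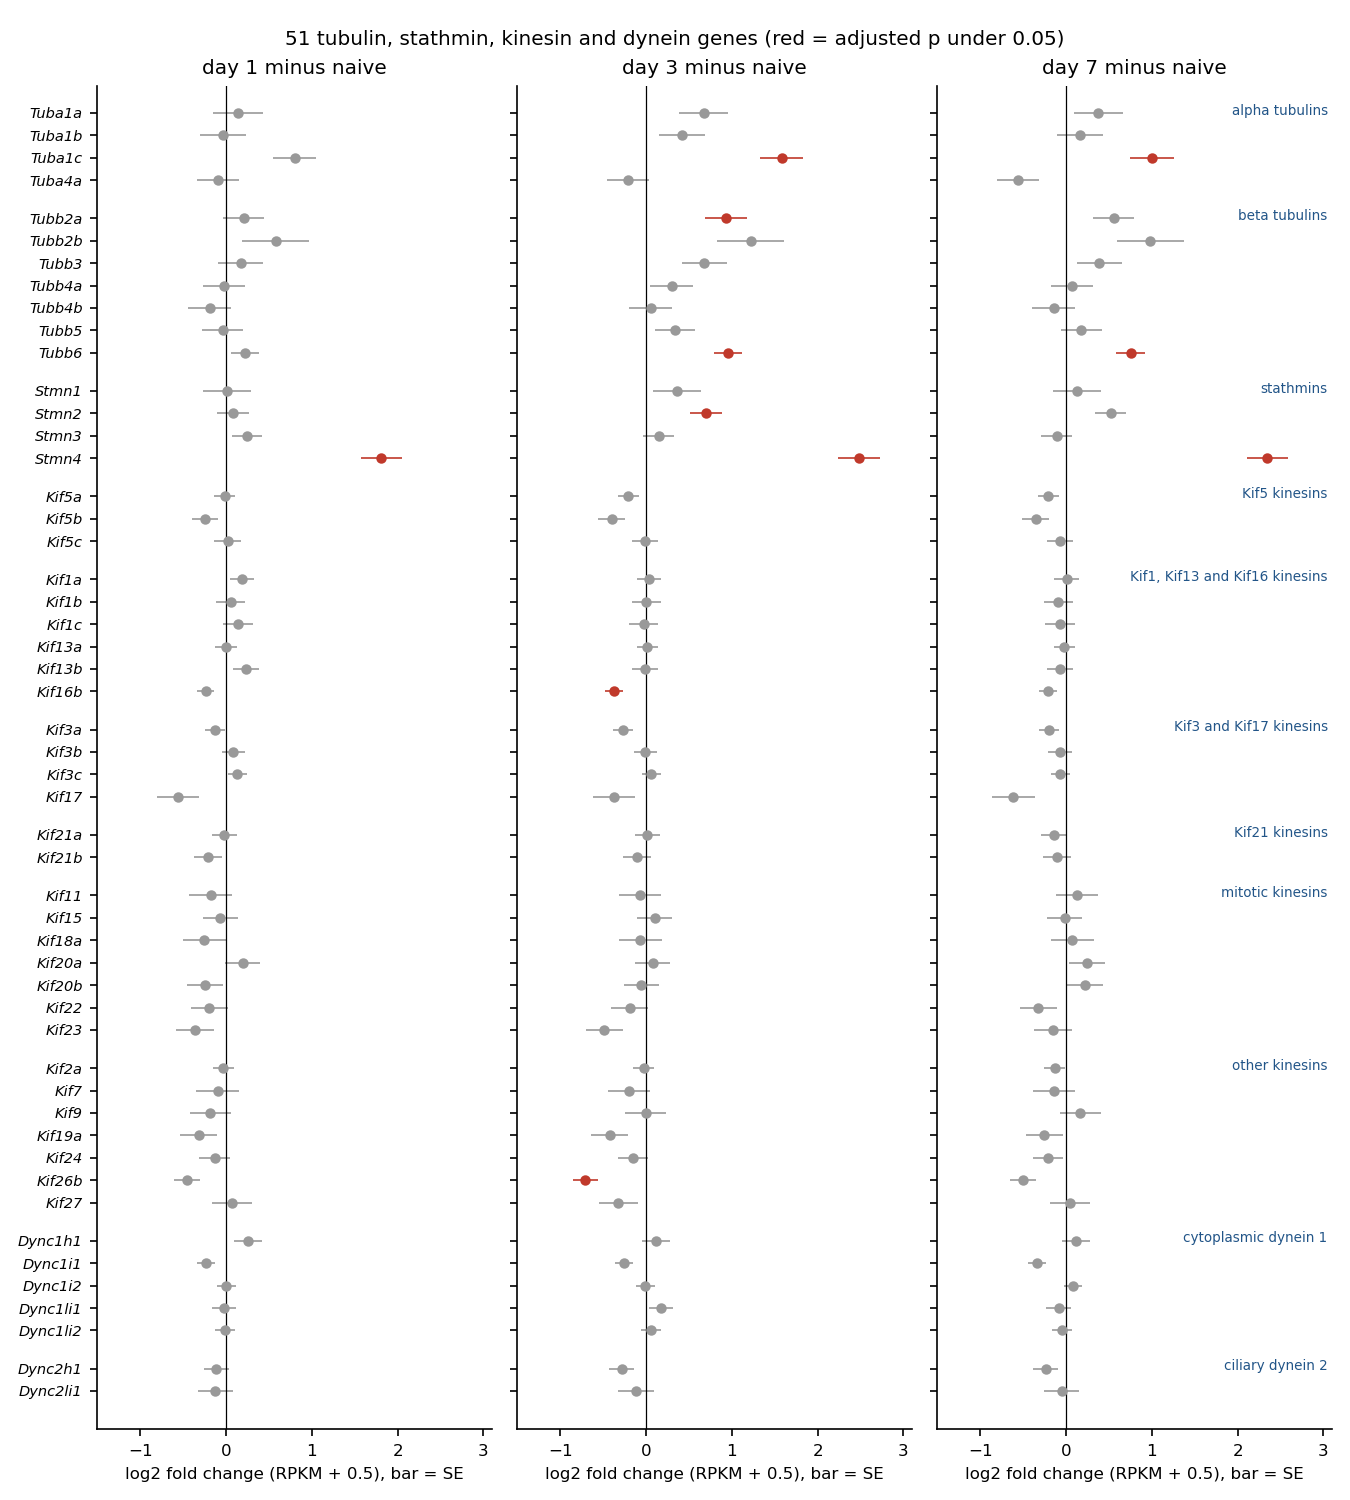
Log2 fold change, day minus naive, of 51 of the 52 genes at day 1, day 3 and day 7, on the log2(RPKM + 0.5) scale with bars of 1 SE, ordered by family from top to bottom. Red points passed an adjusted p of 0.05 in limma: Stmn4 at every day, 7 genes at day 3 and 3 at day 7.

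Among stathmins, Stmn4 was the 1 gene of the 52 that passed on all 3 days. Stmn4, also known as RB3, is a stathmin of neurons that binds tubulin pairs and lies on mouse chromosome 14 (mm10, chr14:66344296-66361680, plus strand). It had 1.42, 0.870 and 1.87 RPKM in naive ganglia, 6.47, 4.73 and 6.78 RPKM at day 1, 11.4, 9.81 and 8.82 RPKM at day 3 and 6.74, 13.8 and 7.92 RPKM at day 7. Every injured library lay above every naive library, and every day 3 library lay above every day 1 library. Its log2 fold change was 1.81 ± 0.24 at day 1 (SE, adjusted p = 0.000629, limma), 2.48 ± 0.24 at day 3 (adjusted p = 2.42e-05) and 2.35 ± 0.24 at day 7 (adjusted p = 6.36e-05). The day 1 values rested on 127, 85 and 150 reads, against 25, 18 and 35 reads in naive ganglia. All 26 alternative settings kept each of these calls.

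Stmn2, also known as SCG10, is a stathmin held on membranes in growing axons and was the most abundant of the 52 genes by its median over libraries (chr3:8509360-8561606, mm10). It had 438, 280 and 311 RPKM in naive ganglia, 376, 293 and 409 RPKM at day 1, 475, 640 and 579 RPKM at day 3 and 355, 615 and 555 RPKM at day 7. The day 3 libraries all lay above the naive ones, whereas the day 1 libraries and day 7 replicate 1 lay within the naive range. At day 3 it rose by 0.70 ± 0.18 on the log2 scale (SE, adjusted p = 0.0371, limma), a call that 16 of 26 alternatives kept. That call was lost when 1 of these libraries was left out: naive replicate 2 (adjusted p = 0.176) or 3 (0.148), day 1 replicate 1 (0.057), or day 3 replicate 1, 2 or 3 (0.0538, 0.159 and 0.109), always with the same sign. At day 7 the log2 fold change of Stmn2 was 0.52 (adjusted p = 0.191), and 0.69 (adjusted p = 0.0405) without day 7 replicate 1.

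Stmn1 and Stmn3 did not pass on any day. Stmn1, the founding member that is found in many cell types, averaged 74.7 ± 12.3 RPKM at day 3 and 57.5 ± 15.4 RPKM in naive ganglia (SD, n = 3 each), with a log2 fold change of 0.36 (adjusted p = 0.57, limma). Stmn3, also called SCLIP and neuronal, had a log2 fold change of 0.15 at day 3 (adjusted p = 0.742). Over the 5 stathmins the median log2 fold change at day 3 was 0.36, against 0 over all genes. Of the 5, Stmn4 and Stmn2 passed, both higher (40%, against 3.7% of all genes), and the Stmn2 call held in 16 of 26 alternatives.

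**Figure D3:**
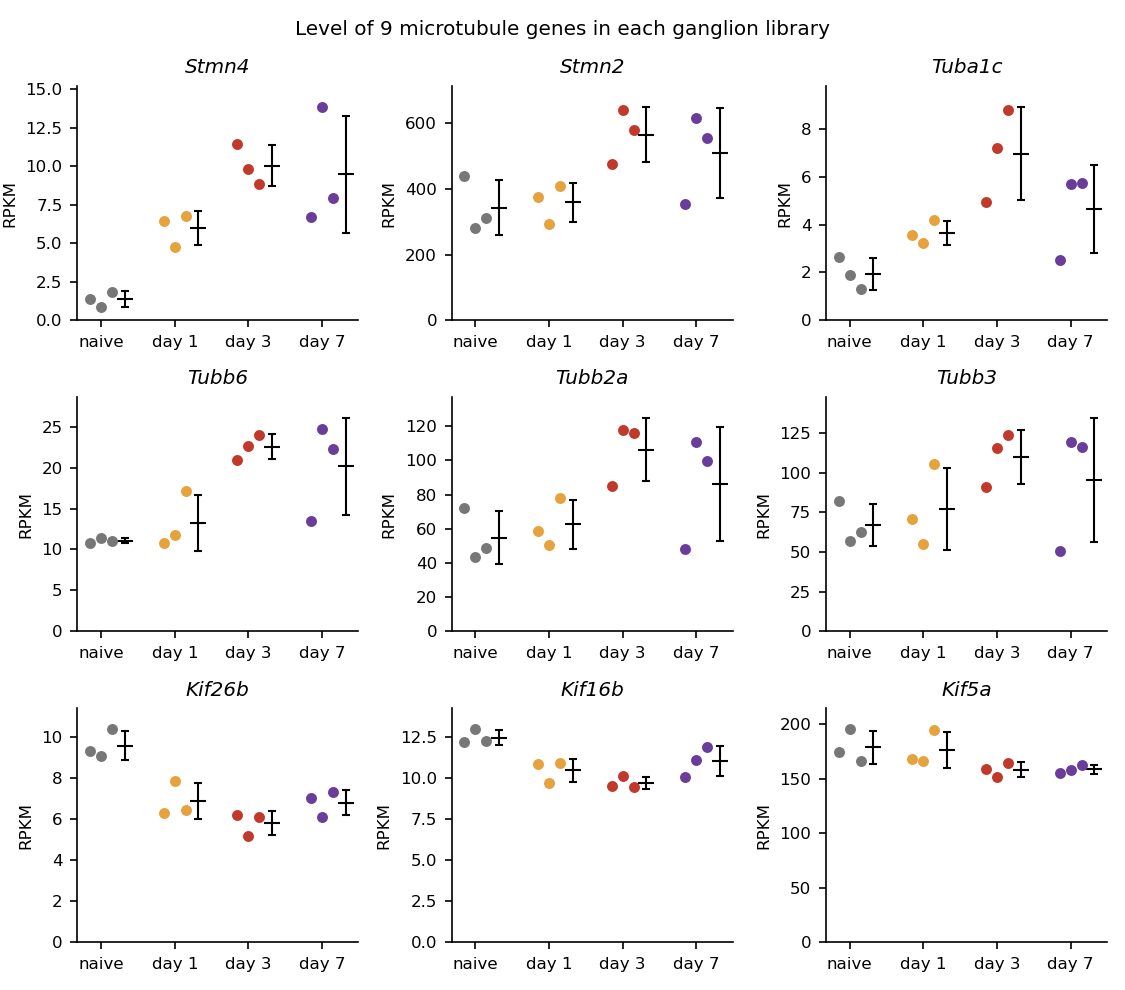
RPKM of 9 genes in each of the 12 libraries, by group from naive to day 7, with a horizontal bar for the mean and an error bar of 1 SD (n = 3). The vertical axes start at 0, and the Stmn4 libraries lie at 4.73 RPKM or more after injury, against 0.870 to 1.87 RPKM in naive ganglia.

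Among the alpha tubulins, Tuba1c rose at days 3 and 7. Tuba1c (chr15:99029891-99038110, mm10, plus strand) encodes a minor alpha tubulin of this tissue. It had 2.65, 1.90 and 1.30 RPKM in naive ganglia, 3.55, 3.22 and 4.20 RPKM at day 1, 4.92, 7.20 and 8.76 RPKM at day 3 and 2.54, 5.70 and 5.72 RPKM at day 7. All day 1 and day 3 libraries lay above all naive ones, and day 7 replicate 1 lay inside the naive range. The log2 fold change was 0.80 ± 0.25 at day 1 (SE, adjusted p = 0.117, limma), 1.58 ± 0.25 at day 3 (adjusted p = 0.00155) and 1.00 ± 0.25 at day 7 (adjusted p = 0.0471). At day 1 it passed with array weights (adjusted p = 0.005), without day 7 replicate 1 (0.0423), without that library and naive replicate 1 together (0.0255) and after the correction for length and GC content (0.0417). The day 3 call held in all 26 alternatives, and the day 7 call in 8 of 26. The day 7 call was lost without naive replicate 2 or 3 (adjusted p = 0.127 and 0.215), day 7 replicate 2 or 3 (0.185 and 0.18), any 1 day 1 library (0.0602 to 0.0742) or day 3 replicate 2 or 3 (0.0694 and 0.051).

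The abundant alpha tubulins did not pass. Tuba1a, the main alpha tubulin of neurons, averaged 226 ± 60.3 RPKM in naive ganglia, 254 ± 96.0 RPKM at day 1, 364 ± 61.0 RPKM at day 3 and 316 ± 131 RPKM at day 7 (SD, n = 3 each), with a log2 fold change of 0.67 ± 0.29 at day 3 (SE, adjusted p = 0.24, limma). At day 3 it passed with array weights (adjusted p = 0.0177), with only the groups compared (0.0336) and without naive replicate 1 and day 7 replicate 1 together (0.0446), and it did not after the correction for length and GC content (log2 fold change 0.58, adjusted p = 0.112). For Tuba1b, which is broadly expressed, it was 0.42 at day 3 (adjusted p = 0.477). Tuba4a, whose gene does not encode the last tyrosine that other alpha tubulins carry, averaged 27.1, 25.8, 23.6 and 19.4 RPKM in naive, day 1, day 3 and day 7 ganglia, and its log2 fold change at day 7 was -0.56 (adjusted p = 0.35). The coding sequences of Tuba1a and Tuba1c agreed at 97.1% of positions with an identical run of 446 bases, and those of Tuba1b and Tuba1c at 97.9% with a run of 468 bases. How the counting treated reads that match several genes is not given in the sources used here, so the split among these 3 genes is uncertain, while Tuba4a was at most 85.3% identical to any of them.

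Of the beta tubulins, Tubb6 and Tubb2a passed. Tubb6, a broadly expressed beta tubulin, had 10.8, 11.4 and 11.1 RPKM in naive ganglia, 10.8, 11.7 and 17.1 RPKM at day 1, 20.96, 22.6 and 24.0 RPKM at day 3 and 13.5, 24.7 and 22.3 RPKM at day 7. The day 3 libraries all lay above 17.1 RPKM, the highest value at day 1, and each day 7 library lay above all naive libraries. Its log2 fold change was 0.22 ± 0.17 at day 1 (SE, adjusted p = 0.612, limma), 0.96 ± 0.17 at day 3 (adjusted p = 0.00292) and 0.75 ± 0.17 at day 7 (adjusted p = 0.0223). The day 3 call held in all 26 alternatives. The day 7 call held in 17, and was lost without any 1 naive library (adjusted p = 0.0606 to 0.0923), without day 7 replicate 2 or 3 (0.108 and 0.088) and without both libraries with muscle transcripts (0.277).

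Macrophage markers also rose at days 3 and 7, the days on which Tubb6 and Tuba1c passed. At day 1, when every Tuba1c library already lay above naive, none of these markers passed. Of 11 such markers, 10 were in the files and 9 were tested. Of the 9, 6 rose at day 3 and 6 at day 7 (66.7% each, against 3.7% and 2.24% of all genes). None of the 10 was at 0 in all libraries. Their summed RPKM was 17.3 to 20.5 at day 1, 34.4 to 50.3 at day 3 and 37.1 to 61.3 at day 7, against 13.0 to 19.3 in naive ganglia. The part of these cells in the rises of Tubb6 and Tuba1c was not tested.

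Tubb2a, a major beta tubulin of nervous tissue (chr13:34074274-34078007, mm10, minus strand), rose at day 3. It had 72.3, 43.5 and 48.7 RPKM in naive ganglia, 58.8, 50.7 and 78.2 RPKM at day 1, 85.0, 118 and 116 RPKM at day 3 and 48.2, 111 and 99.4 RPKM at day 7. The day 3 libraries were all above the naive ones, and day 7 replicate 1 was again within the naive range. The log2 fold change at day 3 was 0.93 ± 0.24 (SE, adjusted p = 0.0379, limma). This call was kept in 15 of 26 alternatives and was lost without naive replicate 2 (adjusted p = 0.157) or 3 (0.14), day 1 replicate 1 (0.0577), day 3 replicate 1, 2 or 3 (0.0517, 0.139 and 0.123) or day 7 replicate 3 (0.0509). At day 7 it was 0.56 (adjusted p = 0.337), and 0.86 (adjusted p = 0.0226) without day 7 replicate 1.

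Tubb3, the neuronal beta tubulin, had 82.0, 56.6 and 62.4 RPKM in naive ganglia, 71.0, 54.8 and 105 RPKM at day 1, 90.8, 115 and 123 RPKM at day 3 and 50.6, 119 and 116 RPKM at day 7. Its day 3 libraries all lay above the naive ones, but the log2 fold change of 0.68 ± 0.26 did not pass (SE, adjusted p = 0.177, limma). Tubb3 passed at day 3 without day 7 replicate 1 (adjusted p = 0.0327), without it and naive replicate 1 together (0.0266), with array weights (0.00959), with only the groups compared (0.0112) and after the correction for length and GC content (log2 fold change 0.59, adjusted p = 0.0384). Tubb3 also lies within the readthrough gene Gm20388 on the same strand, so some of its reads could have been counted elsewhere. Tubb2b, a beta tubulin known from neuronal migration, averaged 10.0 ± 3.15 RPKM at day 3 and 3.79 ± 0.111 RPKM in naive ganglia (SD, n = 3 each), a log2 fold change of 1.22 (adjusted p = 0.104, limma). Tubb2b passed at day 3 with only the groups compared (adjusted p = 0.0028), without day 1 replicate 2 (0.00971), with array weights (0.0142), with voom on recovered reads (0.0322) and after the correction for length and GC content (0.0496). It is 96.5% identical to Tubb2a over the coding sequence, with an identical run of 551 bases, so reads could be split between the 2 genes. Tubb4a, Tubb4b and Tubb5 had log2 fold changes at day 3 of 0.30, 0.05 and 0.34 (adjusted p = 0.603, 0.943 and 0.524), and Tubb4b is known from cilia and many other tissues. Over the 7 beta tubulins the median log2 fold change at day 3 was 0.68, and over the 4 alpha tubulins it was 0.55, against 0 over all genes.

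After the correction for length and GC content, the log2 fold change at day 3 was 2.38 for Stmn4 (adjusted p = 4.04e-05, limma), 1.49 for Tuba1c (0.000415) and 0.86 for Tubb6 (0.000663). It was 0.84 for Tubb2a (0.00365), 0.71 for Stmn2 (0.0137) and -0.68 for Kif26b (0.00183). All of these passed, whereas Kif16b, at -0.3 (0.067), no longer did. At day 7 the corrected log2 fold change was 1.02 for Tuba1c (adjusted p = 0.00854), 0.78 for Tubb6 (0.00208) and 0.57 for Tubb2a (0.0455). Across the 12 libraries, Pearson correlations of log2 level between tubulin genes ran from -0.11 to 0.99 with a median of 0.79 over 55 pairs, a description of points that share library, depth and group.

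The make-up of each family was then described as each gene's share of the summed RPKM of its family in the same library, so that a change common to the whole family cancels. No test was applied, and shares within a family depend on one another. Tuba4a made up 8.38%, 8.87% and 8.66% of alpha tubulin RPKM in naive ganglia, 6.95%, 8.14% and 7.59% at day 1, 5.27%, 4.63% and 5.11% at day 3 and 5.06%, 4.02% and 5.30% at day 7. Each injured library lay below each naive one, and day 7 replicate 1, which had the lowest tubulin levels, was among the other day 7 libraries. Tuba1c made up 0.639%, 0.698% and 0.501% in naive ganglia, 1.16%, 1.35% and 0.874% at day 1, 1.28%, 1.37% and 1.70% at day 3 and 1.16%, 1.08% and 1.16% at day 7. These groups did not overlap with naive on any day. Tuba1a accounted for 76.5% ± 0.83 of alpha tubulin RPKM at day 3 and 71.8% ± 0.57 in naive ganglia (SD, n = 3 each).

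Among beta tubulins the shares of Tubb2a and Tubb3 lay above naive in every injured library. Tubb2a had 10.6% ± 0.51 in naive ganglia, 12.2% ± 0.77 at day 1, 15.2% ± 0.26 at day 3 and 13.9% ± 0.34 at day 7 (SD, n = 3 each), and Tubb3 had 13.1% ± 0.42, 14.8% ± 0.76, 15.8% ± 1.0 and 15.2% ± 0.77. The share of Tubb4b was 28.2% ± 1.9, 24.7% ± 1.5, 22.0% ± 1.8 and 22.7% ± 1.1 over the same groups. At days 3 and 7 all its injured libraries lay below all naive ones. Among stathmins, Stmn3 held 5.33% ± 0.35 of family RPKM in naive ganglia, 5.92% ± 0.59 at day 1, 3.78% ± 0.17 at day 3 and 3.60% ± 0.38 at day 7. Stmn4 held 0.327% ± 0.13, 1.31% ± 0.046, 1.51% ± 0.42 and 1.55% ± 0.35. Of the 19 shares computed over alpha tubulins, beta tubulins, stathmins and Kif5 kinesins, 7 did not overlap with naive at day 1 (5 above and 2 below), and 15 did not at day 3 and likewise at day 7 (9 above and 6 below on both days). No such share was computed for other families, so these counts have no background. Shares of a family sum to a fixed total, so a rise in some forces a fall in others, and the counts are not independent.

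**Figure D4:**
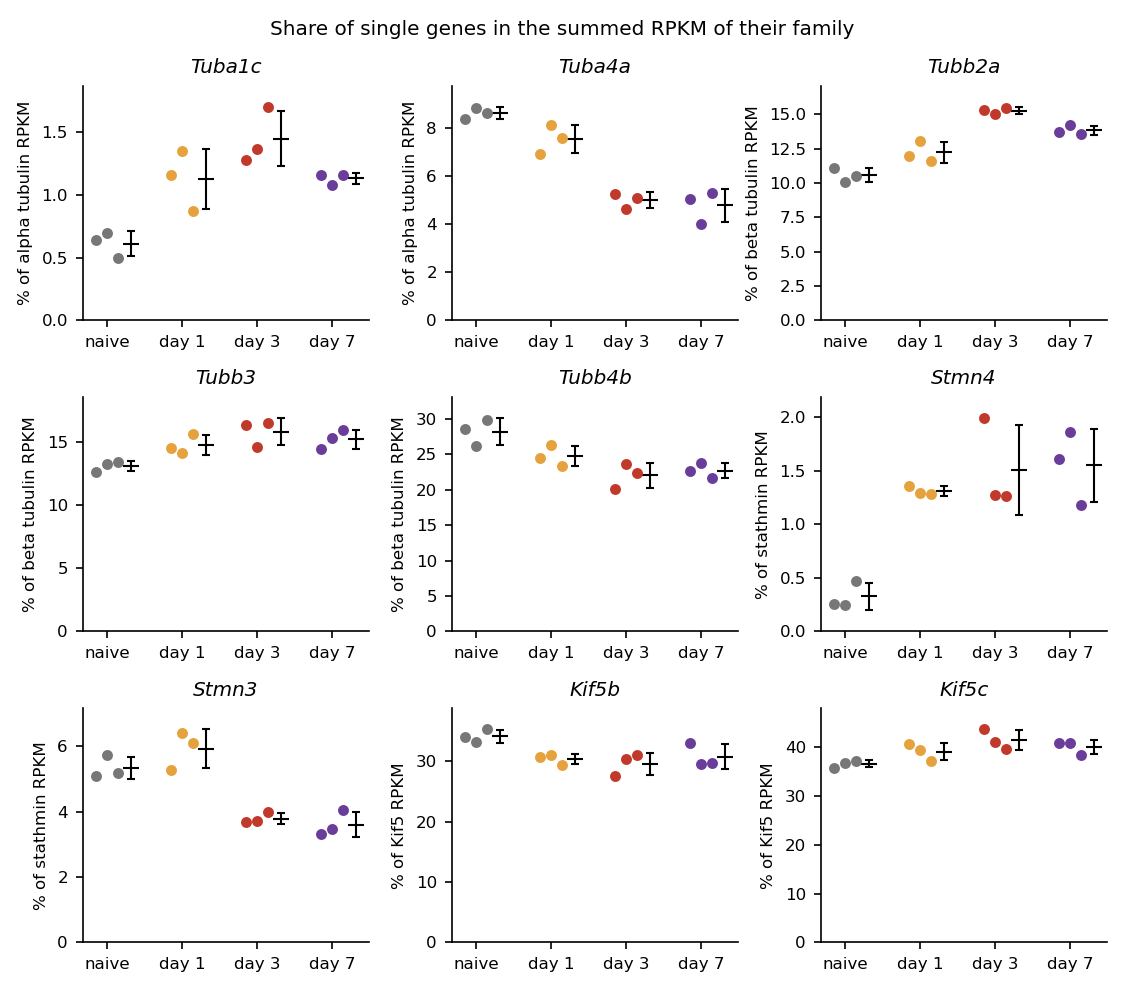
Percent of the summed RPKM of the gene's family (alpha tubulins, beta tubulins, stathmins or Kif5 kinesins) held by 9 genes in each library, by group from naive to day 7, with the mean and 1 SD (n = 3). Tuba4a lies at 4.02% to 5.30% at day 7, against 8.38% to 8.87% in naive ganglia.

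The abundant kinesins varied less between libraries than the tubulins. Kif21a, Kif1b, Kif1a, Kif5c, Kif5b and Kif5a were the 6 kinesins with the highest mean level over the 12 libraries, at 374.7, 339.9, 290.5, 223.1, 178.3 and 168.0 RPKM. In these 6 the highest of the 12 libraries was 1.24 to 1.43 times the lowest. In Tuba1a, Tubb4a, Tubb4b and Tubb5, the tubulins with a median of at least 100 RPKM, the highest was 2.19 to 2.46 times the lowest. Over all 11 tubulins, low ones included, the range was 2.19 to 6.74 times, and in the low kinesin Kif17 the ratio was 3.07. Kif21a is a motor that also limits microtubule growth, and it had a log2 fold change of -0.02, 0.01 and -0.14 at days 1, 3 and 7. Kif1a, which carries vesicles of synaptic precursors, had a log2 fold change of 0.19, 0.03 and 0.01 at days 1, 3 and 7, and Kif1b, which carries vesicles and mitochondria, one of 0.06, 0.01 and -0.09. None of the 6 passed on any day in limma. At an unadjusted p of 0.05 only Kif5b did, at days 3 and 7, and it was also the only one of them that any alternative called.

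Kif5a, Kif5b and Kif5c are the heavy chains of conventional kinesin, of which Kif5a and Kif5c are largely neuronal and Kif5b is found in most cells. Kif5a had 175, 195 and 166 RPKM in naive ganglia, 168, 166 and 195 RPKM at day 1, 159, 151 and 165 RPKM at day 3 and 155, 158 and 163 RPKM at day 7. The day 3 and day 7 libraries lay below the naive ones, with a log2 fold change of -0.20 ± 0.12 on both days that missed the threshold (SE; adjusted p = 0.415 and 0.532, limma). Kif5b had 196, 216 and 213 RPKM in naive ganglia, 179, 175 and 171 RPKM at day 1, 151, 161 and 173 RPKM at day 3 and 197, 157 and 151 RPKM at day 7. Only day 7 replicate 1 reached the naive range, and the log2 fold change was -0.40 ± 0.16 at day 3 (SE, adjusted p = 0.175) and -0.35 ± 0.16 at day 7 (adjusted p = 0.339). It passed without day 7 replicate 1 (adjusted p = 0.0357 at day 3 and 0.0212 at day 7) and after the correction for length and GC content (log2 fold change -0.26, adjusted p = 0.0448 at day 3, and -0.30, adjusted p = 0.0349 at day 7). Kif5b held 34.2% ± 1.0 of Kif5 RPKM in naive ganglia, 30.4% ± 0.91 at day 1, 29.6% ± 1.9 at day 3 and 30.7% ± 2.0 at day 7, while Kif5c held 36.5% ± 0.77, 39.0% ± 1.7, 41.4% ± 2.0 and 40.0% ± 1.4 (SD, n = 3 each).

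Among the genes followed by prefix, Kif26b and Kif16b were the kinesins that passed with a fall, both at day 3 only. Kif26b, an atypical kinesin known from kidney development and Wnt5a signalling (chr1:178529125-178939200, mm10, plus strand), had 9.34, 9.06 and 10.4 RPKM in naive ganglia, 6.30, 7.88 and 6.43 RPKM at day 1, 6.19, 5.17 and 6.10 RPKM at day 3 and 7.02, 6.11 and 7.31 RPKM at day 7. Every injured library lay below every naive one. The log2 fold change was -0.45 ± 0.15 at day 1 (SE, adjusted p = 0.137, limma), -0.71 ± 0.15 at day 3 (adjusted p = 0.0111) and -0.50 ± 0.15 at day 7 (adjusted p = 0.102). The day 3 call was lost without naive replicate 3 (adjusted p = 0.0661) or day 3 replicate 2 (0.0605) and held in the other 24 alternatives. Kif26b also passed at days 1 and 7 with voom on recovered reads (adjusted p = 0.0483 and 0.0287), with array weights (0.00647 and 0.0144) and after the correction for length and GC content (0.0138 and 0.018). Part of the Kif26b locus overlaps Gm16564, an antisense gene (chr1:178898582-178917614), and since strandedness is not stated, reads from that stretch cannot be told apart. The small genes Gm24405 and Gm34176 lie within the locus on the same strand.

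Kif16b, which moves early endosomes (chr2:142617474-142901531, mm10, minus strand), had 12.2, 13.0 and 12.3 RPKM in naive ganglia, 10.8, 9.69 and 10.9 RPKM at day 1, 9.53, 10.2 and 9.47 RPKM at day 3 and 10.1, 11.1 and 11.9 RPKM at day 7. All injured libraries were below all naive ones. The fall at day 3 was -0.38 ± 0.10 on the log2 scale (SE, adjusted p = 0.048, limma), and it was kept in 10 of 26 alternatives. It was kept without day 7 replicate 1 or 3 and lost without any other 1 library (adjusted p = 0.0572 to 0.206, the highest without naive replicate 2), and its adjusted p was 0.067 after the correction for length and GC content.

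The remaining transport kinesins did not pass. The 4 genes of the Kif3 and Kif17 group, motors of vesicles and cilia, summed to 122 ± 5.28 RPKM at day 3 and 133 ± 7.13 RPKM in naive ganglia (SD, n = 3 each), with a median log2 fold change of -0.14. The 7 kinesins of cell division, Kif11, Kif15, Kif18a, Kif20a, Kif20b, Kif22 and Kif23, summed to 16.3 ± 1.57 RPKM in naive ganglia, 13.9 ± 2.06 RPKM at day 1, 14.6 ± 0.393 RPKM at day 3 and 16.0 ± 1.27 RPKM at day 7. None of the 7 passed on any day in limma, and at an unadjusted p of 0.05 Kif23 alone did, at day 3 (log2 fold change -0.48). No alternative, voom included, called any of them. Of 9 other markers of dividing cells 4 were tested and 0 passed in limma, where 3 had an unadjusted p under 0.05 at day 3 and 2 at day 7, while voom on recovered reads called 3 at day 3 and 1 at day 7. All 9 together had summed RPKM of 6.64 to 8.71 at day 1, 12.3 to 19.6 at day 3 and 12.2 to 13.3 at day 7, against 7.43 to 10.3 in naive ganglia.

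The 7 dynein subunits did not pass on any day, in limma or in voom on recovered reads, and only Dync1i1 had an unadjusted p under 0.05. Dync1h1, the heavy chain that holds the motor, averaged 326 ± 25.8 RPKM in naive ganglia, 390 ± 32.1 RPKM at day 1, 362 ± 37.1 RPKM at day 3 and 362 ± 34.3 RPKM at day 7 (SD, n = 3 each), with log2 fold changes of 0.26, 0.12 and 0.11 (adjusted p = 0.508, 0.789 and 0.872, limma). Dync1i1, an intermediate chain found mainly in neurons, averaged 23.9 ± 2.48, 20.2 ± 1.92, 20.5 ± 2.78 and 19.3 ± 1.97 RPKM over the same groups. Its log2 fold change at day 7 was -0.34 ± 0.10 (SE, adjusted p = 0.115), and it passed after the correction for length and GC content at day 3 (-0.31, adjusted p = 0.0237) and day 7 (-0.34, adjusted p = 0.0209). The other intermediate chain Dync1i2 and the light intermediate chains Dync1li1 and Dync1li2, which link the motor to cargo, had log2 fold changes at day 3 of -0.01, 0.17 and 0.06. Dync2h1 and Dync2li1, of the dynein that returns cargo from cilia, had log2 fold changes at day 3 of -0.28 and -0.12 (adjusted p = 0.345 and 0.832).

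Promoter sequence is shown for the genes that passed and have one printed here, so that the letters before the start can be set beside changes in opposite directions. The 250 bases before the annotated start are from RefSeq on GRCm38.p6, the assembly also called mm10, for 4 of the 7 genes that passed at day 3, and Stmn2, Stmn4 and Tubb6 are named only. They run 5′ to 3′ on the gene's own strand, with capitals marking matches on either strand to 5 short motifs. These were the cAMP response element, spelled TGACGTCA, the AP-1 site, spelled TGANTCA where N is any base, the TATA box, spelled TATAAA, the CCAAT box, named by its letters, and the GC box, spelled GGGCGG. Tubb2a is at chr13:34078009-34078258 (minus strand), Tuba1c at chr15:99029641-99029890 (plus), Kif26b at chr1:178528875-178529124 (plus) and Kif16b at chr2:142901465-142901714 (minus).
Tubb2a: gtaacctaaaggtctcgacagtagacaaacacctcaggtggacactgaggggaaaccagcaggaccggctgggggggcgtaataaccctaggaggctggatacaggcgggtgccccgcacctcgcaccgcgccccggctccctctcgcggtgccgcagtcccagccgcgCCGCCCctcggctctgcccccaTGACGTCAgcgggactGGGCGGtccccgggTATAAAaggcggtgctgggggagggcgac
Tuba1c: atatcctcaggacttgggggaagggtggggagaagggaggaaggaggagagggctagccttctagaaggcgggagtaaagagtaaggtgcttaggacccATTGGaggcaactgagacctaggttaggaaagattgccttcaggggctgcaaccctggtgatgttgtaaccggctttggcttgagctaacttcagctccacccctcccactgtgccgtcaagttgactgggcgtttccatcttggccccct
Kif26b: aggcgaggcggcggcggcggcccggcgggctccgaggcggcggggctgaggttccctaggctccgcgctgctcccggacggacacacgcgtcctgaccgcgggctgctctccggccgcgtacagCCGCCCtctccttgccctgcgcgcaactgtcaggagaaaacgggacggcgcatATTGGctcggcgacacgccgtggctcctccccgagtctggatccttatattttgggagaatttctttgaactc
Kif16b: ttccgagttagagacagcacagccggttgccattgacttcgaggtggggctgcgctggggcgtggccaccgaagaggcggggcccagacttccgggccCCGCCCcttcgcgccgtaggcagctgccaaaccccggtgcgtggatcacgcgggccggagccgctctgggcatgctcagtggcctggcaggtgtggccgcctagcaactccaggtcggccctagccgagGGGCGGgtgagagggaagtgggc

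The Tubb2a promoter held a cAMP response element starting 59 bases before the start and a TATA box at 29 bases, with GC boxes at 81 and 43 bases. The Tuba1c promoter held a CCAAT box at 151 bases, Kif26b a CCAAT box at 73 and a GC box at 126, and Kif16b GC boxes at 152 and 23. For Kif16b the RefSeq start differs from the GENCODE gene interval given above, which reaches chr2:142901531. The part of its window nearest the RefSeq start, with the GC box at 23 bases, therefore lies inside that interval. No matches overlapped, and none of the 4 windows held the AP-1 site. Of 32851 mouse promoters of the same length, 1.55% held the cAMP response element, 6.75% the AP-1 site, 12.4% the TATA box, 33.8% the CCAAT box and 32.7% the GC box. These are matches of letters and not measured binding.

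Between injured days none of the 52 genes passed in limma. At day 3 against day 1, 5 of the 52 had an unadjusted p under 0.05 (Stmn2, Stmn4, Tuba1c, Tubb2a and Tubb6) against 9.45% of all genes, the lowest adjusted p was 0.0792 in Tubb6, and 0.5% of all genes passed. At day 7 against day 1, 4 had an unadjusted p under 0.05 (10.4% of all genes), and 0.965% of all genes passed. At day 7 against day 3, 1 had an unadjusted p under 0.05 (Tuba1c), against 5.09% of all genes, and 0 of all tested genes passed. Array weights called 4 of the 52 at day 3 against day 1 and 1 at day 7 against day 1. The shares of all genes called were 2.37% and 1.92%. Voom on recovered reads called 1 and 0 in these 2 comparisons, against 1.04% and 1.69% of all genes. Without day 7 replicate 1 there was 1 call in each of them, against 0.733% and 0.831% of all genes. Over all 4 groups together, Stmn4 (adjusted p = 6.18e-05), Tubb6 (0.00706), Tuba1c (0.00905) and Kif26b (0.0486) passed, 7.69% of the 52 genes against 4.83% of all genes. Without day 7 replicate 1, 7 of the 52 passed (13.5%), against 6.38% of all genes.

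Other microtubule genes were taken from 10 lists of regulators, adaptors and modifying enzymes, of which 146 of 168 listed genes were tested. At day 3, 6 rose (4.11%) and 3 fell (2.05%), against 3.7% and 2.04% of all genes, and the median log2 fold change was 0.04. At day 1, 3 rose (2.05%) and 2 fell (1.37%), against 2.54% and 0.831% of all genes, and at day 7, 1 rose (0.685%) and 2 fell (1.37%), against 2.24% and 0.655%. Of 20 tested enzymes that modify tubulin, Vash2, a partner-dependent protease that removes the last tyrosine of alpha tubulin, rose on every day. Vash2 had 1.68, 1.47 and 2.06 RPKM in naive ganglia, 4.73, 4.30 and 4.06 RPKM at day 1, 5.29, 4.85 and 3.99 RPKM at day 3 and 4.15, 4.13 and 4.85 RPKM at day 7. All injured libraries lay above all naive ones, with log2 fold changes of 1.13, 1.19 and 1.10 ± 0.16 (SE, adjusted p = 0.00119, 0.000452 and 0.00129, limma) that held in all 25 alternatives run for it. In the same list at day 3, Agtpbp1, a deglutamylase known from injured motor neurons, rose by a log2 fold change of 0.48 (adjusted p = 0.0285), and Agbl4, a related enzyme, fell by 0.68 (adjusted p = 0.0334). Agtpbp1 was lost without any 1 naive or day 3 library (adjusted p = 0.0706 to 0.11) and Agbl4 without naive replicate 2 or 3 or day 3 replicate 1 or 2 (0.0759 to 0.155).

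Of 36 microtubule-associated and plus-end proteins, 2 rose and 2 fell at day 1 (5.56% each), against 2.54% and 0.831% of all genes. At day 3, 2 rose and 2 fell (5.56% each), against 3.7% and 2.04%. At day 7, 0 rose and 1 fell (2.78%), against 2.24% and 0.655%. Map7d1, a relative of the kinesin cofactor Map7, averaged 54.7 ± 4.47 RPKM at day 3 and 29.7 ± 2.10 RPKM in naive ganglia (SD, n = 3 each), with log2 fold changes of 0.88 at day 1 and 0.84 at day 3 (adjusted p = 0.00248 and 0.00232, limma) that held in all 26 alternatives. Prc1, which bundles microtubules of the spindle midzone, rose at day 3 by 0.80 (adjusted p = 0.0121, lost only without naive replicate 2 at 0.0515 or 3 at 0.0606). Eml1, a microtubule-binding protein, fell at day 3 by 0.55 (adjusted p = 0.00873, kept in 26 of 26), and Ckap5, a microtubule polymerase, by 0.51 (adjusted p = 0.0414). Both also fell at day 1, Eml1 by 0.43 (adjusted p = 0.0459, kept in 10 of 26) and Ckap5 by 0.54 (adjusted p = 0.045, kept in 12 of 26), and single libraries moved these day 1 values to as much as 0.17 and 0.175. Map6, which stabilises microtubules, rose at day 1 by 0.51 (adjusted p = 0.0149), and was lost without naive replicate 1 or 3 or day 1 replicate 1 (0.0688 to 0.0812). Map7d2, another relative of Map7, fell at day 7 by 0.53 (adjusted p = 0.0463, kept in 10 of 26), and was lost without any 1 naive or day 7 library, day 1 replicate 1 or day 3 replicate 2 or 3 (0.0647 to 0.16). Crmp1, 1 of 5 collapsin response mediators, rose at day 3 by 0.54 (adjusted p = 0.0312), and Ndel1, a dynein regulator among 13 dynactin and dynein regulators, by 0.50 (adjusted p = 0.0177). At day 3 Ckap5 was lost without any 1 naive or day 3 library or without day 1 replicate 1 or 2 (adjusted p = 0.0503 to 0.163), Crmp1 without naive replicate 2 or 3 or any 1 day 3 library (0.0582 to 0.129), and Ndel1 without naive replicate 2 or 3 or day 3 replicate 1 or 2 (0.0637 to 0.0958). At day 7 Kifc2, a neuronal kinesin that moves to the minus end, fell by 0.70 (adjusted p = 0.0345), and it was lost without any 1 naive library, day 1 replicate 1 or day 7 replicate 1 or 2 (0.0528 to 0.165). None of the 19 tested motor adaptors, 21 tubulin folding genes, 6 severing genes, 6 dynein light chains or 14 other tubulins and nucleation genes passed on any day in limma. Of these 66 genes, 3, 8 and 4 had an unadjusted p under 0.05 at days 1, 3 and 7 (4.55%, 12.1% and 6.06%, against 15%, 17.9% and 13.1% of all genes), and voom on recovered reads called 0, 1 and 0.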

How the data were processed

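The series holds RNA-seq of dorsal root ganglia in 12 libraries, 3 per group, which were grouped by the sample titles. The labels' protocols state Trizol extraction and a Nugen Ovation low-input kit before TruSeq Nano library preparation, so amplified reads are not independent molecules. The tools named in the submitters' processing notes are bcl2fastq 2.17, STAR, HTSeq, edgeR and limma, with mm10 as the build. Their roles and other versions, the annotation and the strandedness are not given in the sources here. No unit is written in the files, and the deposited values were taken for RPKM made by the authors because of 2 features of the values. The values of a gene were multiples of what 1 whole read is worth (tolerance 0.05 reads), and the implied gene lengths were whole numbers for 99.98% of 12621 genes. Named genes held 92.1% to 94.0% of each recovered library size. GENCODE M21, the source of gene coordinates and coding sequences, held 94.7% of the symbols, and 27 symbols had been turned into dates.

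The filter asked for 3 or more libraries at an RPKM of 1 or more. Libraries were scaled by an unweighted trimmed mean of log ratios (30% of ratios and 5% of levels trimmed at each end). The log2(RPKM + 0.5) values, a scale that understates changes of low genes, were fitted with limma 3.58.1 and statmod 1.5.0 in R 4.3.3. The model had 4 group means over all 12 libraries, which left 8 residual degrees of freedom, a variance trend and robust moderation. Tests were two-sided at a threshold of 0.05, with Benjamini-Hochberg adjustment over 14195 genes, and the fit was tested on simulated data. The text names the tubulins, stathmins and dynein subunits, Kif5a, the 6 most abundant kinesins, kinesins past the threshold and up to 3 genes per list past the threshold. A single gene is counted but not reported here. Ckap5, Map6, Map7d2 and Kif23 were named after their values were seen. The genes followed and the lists were chosen with earlier results of these data known. Replicate numbers were checked for pairing: deviations of same-numbered libraries correlated at -0.34 to 0.24 (median -0.04 over 18 pairs), so no block was used.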

Additional observations from a re-analysis of the deposited data

How the results depend on the processing

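Stmn4 passed on every day, and Tubb6 and Tuba1c passed at day 3, in all 26 alternatives, and every gene that passed against naive kept its sign in every alternative. With naive as the baseline, the number of the 52 genes that passed was 1 at day 1, 7 at day 3 and 3 at day 7, and it was 4 over all groups together and 0 between injured days. Array weights gave 3, 12 and 7 against naive, 11 over all groups, 4 for day 3 against day 1 and 1 for day 7 against day 1, when 12.8%, 13.7%, 5.99%, 14.7%, 2.37% and 1.92% of all genes were called in the same order. The length and GC correction, chosen after seeing the data, gave 3, 10 and 7, then 7, 1 and 1, against 6.35%, 9.96%, 6.17%, 9.24%, 1.21% and 2.08% of all genes. Leaving out naive replicate 1 and day 7 replicate 1 together, also chosen after seeing the data, gave 2, 10 and 7, then 7, 3 and 1, against 3.23%, 6.88%, 4.09%, 5.35%, 0.796% and 0.761%. Voom on recovered reads gave 2, 8 and 4 against naive, where it called 4.35%, 7.52% and 3.93% of all genes, and 1 for day 3 against day 1 (1.04%). No scaling gave 4 at day 3 and 1 at day 7, when 5.94% and 3.22% of all genes passed. A fit with no variance trend or robust moderation gave 4 at day 3 (5.04% of all genes). The day 7 count was 1 with no expression filter (1.76%), with only the groups compared (1.76%) and without both libraries with muscle transcripts (1.13%). Leaving out each library in turn gave 1 to 2 at day 1, 3 to 9 at day 3 and 1 to 6 at day 7. The share of all genes was then 1.56% to 4.33%, 3.13% to 7.56% and 1.62% to 3.66%. Over all groups the count was 3 to 7 (2.68% to 6.38% of all genes). Between injured days it was 0 to 1 for day 3 against day 1 (0.0845% to 0.733%) and 0 to 1 for day 7 against day 1 (0.38% to 0.831%). For day 7 against day 3 it was 0 (0% to 0.0141%). The cause of these changes was not tested. With the replicate number as a block the counts were 1, 4 and 2 against naive, when 2.59%, 4.61% and 2.24% of all genes passed. Of 12 libraries, 4 were closest to a library of their own number, so the numbers were not taken to pair the libraries. Depth limits the folds of low genes, since naive Stmn4 rested on 18 to 35 reads per library.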

Other observations

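Tubb1, the beta tubulin of platelets and megakaryocytes, was 1 of 14 genes with these prefixes that stayed under the expression level and was singled out after its values were seen. It had 0.383, 0.149 and 0.263 RPKM in naive ganglia, 0.0313, 0 and 0.0278 RPKM at day 1, 0 RPKM in all 3 libraries at day 3 and 0.0618, 0.0282 and 0.0366 RPKM at day 7. These values rested on 11, 5 and 8 recovered reads in naive ganglia, 1, 0 and 1 at day 1, none at day 3 and 2, 1 and 1 at day 7, and every injured library lay below every naive one. In limma with no expression filter the adjusted p of Tubb1 was 0.0138 at day 1, 0.00519 at day 3 and 0.0278 at day 7. Of 5 erythrocyte markers 1 was tested and did not pass. The other 4 stayed below 1 RPKM in all libraries, 3 of them at 0, so the sum is a weak measure of blood. Summed RPKM, which rested almost wholly on the tested gene, was 17.7 to 22.1 at day 1 and 16.7 to 19.1 at day 3. It was 15.8 to 24.3 at day 7, against 19.2 to 22.0 in naive ganglia. These ranges overlapped with naive at days 1 and 7 and not at day 3. The part of blood content in the Tubb1 values was not tested. The other 13 genes under the expression level, among them Tuba8, Tuba3a and Kif4, reached at most 0.834 RPKM and none passed without the filter.

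Scn10a and Scn11a, sodium channels of nociceptors and 2 of the 13 sensory neuron markers, fell at day 3 while the neuronal Stmn2 rose. Scn11a averaged 91.9 ± 11.9 RPKM at day 3 and 139 ± 2.09 RPKM in naive ganglia (SD, n = 3 each; log2 fold change -0.64, adjusted p = 0.00532, limma), and Scn10a 143 ± 14.4 RPKM at day 3 and 207 ± 9.02 RPKM in naive ganglia (log2 fold change -0.57, adjusted p = 0.0164). These are the 2 of the 13 that passed at day 3 (15.4% lower, against 2.04% of all genes). The other 11 did not pass, with log2 fold changes of 0.33 in Uchl1, 0.17 in Avil and 0.13 in Prph among them, and the median of the list was -0.29.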
